A study of Mus musculus with 8 samples.

Results

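The 4 Hox gene clusters were examined in chromatin accessibility data from mouse spleen that had been formalin fixed and paraffin embedded (FFPE). Members were the protein-coding genes of the GENCODE vM21 annotation (mm10) whose symbol is Hoxa, Hoxb, Hoxc or Hoxd followed by a number, which gave 39 of 21827 protein-coding genes. The Hoxa cluster held 11 genes over 105.3 kb of chromosome 6, the Hoxb cluster 10 genes over 173.9 kb of chromosome 11, the Hoxc cluster 9 genes over 115.8 kb of chromosome 15 and the Hoxd cluster 9 genes over 96.8 kb of chromosome 2. ATAC-seq, in which the Tn5 transposase cuts open DNA and tags it with adapters, had been run on spleen nuclei of 8-week-old C57BL/6J mice, an inbred wild-type strain. After tagmentation the crosslinks were reversed during DNA purification in +RV samples, a step that frees DNA from formaldehyde-bound protein, and were left in place in −RV samples, so all groups shared strain, tissue and fixation. Bulk and single-cell libraries were made by different protocols, and their values are not compared as levels. There were 2 bulk libraries per condition, each with its own list of peaks, and 2 labelled single-cell libraries per condition whose fragments were deposited as 1 pooled set per condition. Both bulk libraries of each condition are named technical replicates in the study's supplement, and p-values over them measure technical spread. A peak in bulk nuclei cannot tell apart a site open in few cells from one weakly open in many.

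Hox genes encode homeodomain transcription factors that set position along the head-to-tail axis of the embryo. Within a cluster the genes lie in the order in which they are used, with low paralog numbers (1 to 4) anterior and high numbers (9 to 13) posterior, and outside their domain the clusters are kept closed by Polycomb group proteins on CpG-rich DNA. In adult blood, Hoxa and Hoxb genes are known from stem and progenitor cells, where Hoxb4 and Hoxa9 act in self-renewal, and are shut down as cells mature. Most spleen nuclei come from mature lymphocytes.

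Sequence is shown first for 3 promoters and 2 peak regions, since CpG content and the place of the peaks are the base of several results below. The promoters come from RefSeq (GRCm38.p6, the build of mm10, 250 bases before to 50 after the start), where 22 of the 39 members had an entry. They are those of Hoxb4, whose window held a peak in all 4 bulk libraries (chr11:96318017-96318316, plus strand), Hoxa5, with a peak in 3 libraries (chr6:52204538-52204837, minus strand), and Hoxd13, the last gene of its cluster, with no peak in any library (chr2:74667975-74668274, plus strand). Capitals mark each CpG dinucleotide.
Hoxb4 promoter: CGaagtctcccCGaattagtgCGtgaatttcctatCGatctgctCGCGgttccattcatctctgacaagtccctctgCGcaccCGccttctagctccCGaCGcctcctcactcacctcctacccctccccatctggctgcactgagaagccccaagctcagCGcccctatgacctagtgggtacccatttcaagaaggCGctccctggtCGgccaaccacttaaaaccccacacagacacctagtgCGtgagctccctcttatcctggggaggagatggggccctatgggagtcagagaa
Hoxa5 promoter: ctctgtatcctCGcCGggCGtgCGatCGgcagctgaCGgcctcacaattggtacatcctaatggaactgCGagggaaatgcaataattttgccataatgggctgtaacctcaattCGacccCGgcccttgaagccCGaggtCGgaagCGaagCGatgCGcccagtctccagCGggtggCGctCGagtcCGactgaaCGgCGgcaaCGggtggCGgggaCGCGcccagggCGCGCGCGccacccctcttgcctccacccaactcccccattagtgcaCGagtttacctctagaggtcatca
Hoxd13 promoter: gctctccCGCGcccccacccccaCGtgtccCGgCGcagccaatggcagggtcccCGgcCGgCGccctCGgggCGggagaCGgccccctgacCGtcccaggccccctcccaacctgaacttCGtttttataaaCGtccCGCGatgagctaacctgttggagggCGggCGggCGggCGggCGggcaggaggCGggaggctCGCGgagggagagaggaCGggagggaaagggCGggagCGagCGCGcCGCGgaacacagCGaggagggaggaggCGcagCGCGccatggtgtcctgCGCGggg
The Hoxb4 sequence held 14 CpG, that of Hoxa5 29 and that of Hoxd13 37, so the promoter with the most CpG of these 3 was the one without a peak. These 3 were picked as examples, and the order does not hold for all members. Hoxa4, with a peak in all 4 libraries, held 47 CpG in 300 bp around its start, more than any other member.

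The peak regions lie outside the promoter windows of the members and are shown as 200 bp of the plus strand around the summit. They are the region between Hoxc8 and Hoxc6 found in all 4 libraries (chr15:102999297-102999496) and the region between Hoxa2 and Hoxa4 found in both +RV libraries (chr6:52172713-52172912). The second lies inside the gene record of Hoxa3, and the start of Gm15050, a gene that is not protein-coding, is within 1 kb of it. Capitals mark CCAAT and CACGTG on either strand (ATTGG is CCAAT read from the minus strand). CCAAT is the box bound by NF-Y, and CACGTG is an E-box.
Hoxc8 to Hoxc6: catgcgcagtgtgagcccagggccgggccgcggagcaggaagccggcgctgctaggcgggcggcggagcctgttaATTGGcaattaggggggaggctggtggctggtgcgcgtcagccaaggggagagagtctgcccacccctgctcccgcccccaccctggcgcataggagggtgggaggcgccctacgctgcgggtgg
Hoxa2 to Hoxa4: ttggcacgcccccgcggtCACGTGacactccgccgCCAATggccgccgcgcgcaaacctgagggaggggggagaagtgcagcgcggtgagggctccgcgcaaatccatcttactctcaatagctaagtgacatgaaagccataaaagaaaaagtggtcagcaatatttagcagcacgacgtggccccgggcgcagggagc
The first held 1 CCAAT, and the second 1 CACGTG and 1 CCAAT.

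The first question was which Hox promoters were open in FFPE spleen. Of the 39 members, 7 had a peak touching their promoter window, which ran from 1000 bp before a transcription start site (TSS) to 200 bp after it, in at least 1 of the 4 bulk libraries, which is 17.9%, beside 56.5% of all protein-coding genes. In both +RV libraries 4 of 39 members were called, among them Hoxa4, Hoxa5 and Hoxb4, which is 10.3%, beside 53.6% of all genes. In both −RV libraries Hoxa4 and Hoxb4 were called, 2 of 39 or 5.13%, beside 47.7%. No member was called in both +RV libraries and in no −RV library, beside 3.49% of all genes, and with 39 members a count of 0 cannot be told apart from that share. The remaining 32 members, among them every member numbered 10 or higher, had no promoter peak in these 4 lists.

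Hoxa4 carried the peak of highest fold in the 4 clusters. Its deposited fold, the pile-up at the summit over the caller's local background, was 9.63 and 10.1 in +RV libraries and 8.36 and 7.18 in −RV libraries, and the 2 conditions did not overlap. Within its own list the peak stood in the best 13% and 11.9% of +RV peaks and in the best 19.8% and 21.4% of −RV peaks. The summit lay 253 bp upstream of the Hoxa4 TSS.

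Hoxb4, a regulator of blood stem cell self-renewal, was the other member called in all 4 libraries. Its fold was 5.74 and 6.96 in +RV libraries and 7.66 and 6.89 in −RV libraries, so the conditions overlapped. The best summit lay 376 bp downstream of the TSS, inside the gene and outside the promoter window, and the peak reached the window from there.

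Hoxa5 had folds of 5.92 and 5.20 in +RV libraries and 3.84 in −RV replicate 1, with no peak in −RV replicate 2. Of the members with a peak, 3 were called in a single +RV library, Hoxa7 with a fold of 3.06, Hoxc9 with 4.44 and Hoxd9 with 3.73. For comparison, the median fold of all peaks lay between 4.33 and 4.41 in the 4 libraries.

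By position, a promoter peak was found in 3 of the 12 members numbered 1 to 4, in 2 of the 11 numbered 5 to 8 and in 2 of the 16 numbered 9 to 13. Both members with a peak in all 4 libraries were number 4 genes. The posterior pair, Hoxc9 and Hoxd9, rested on 1 library each.

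**Figure D1:**
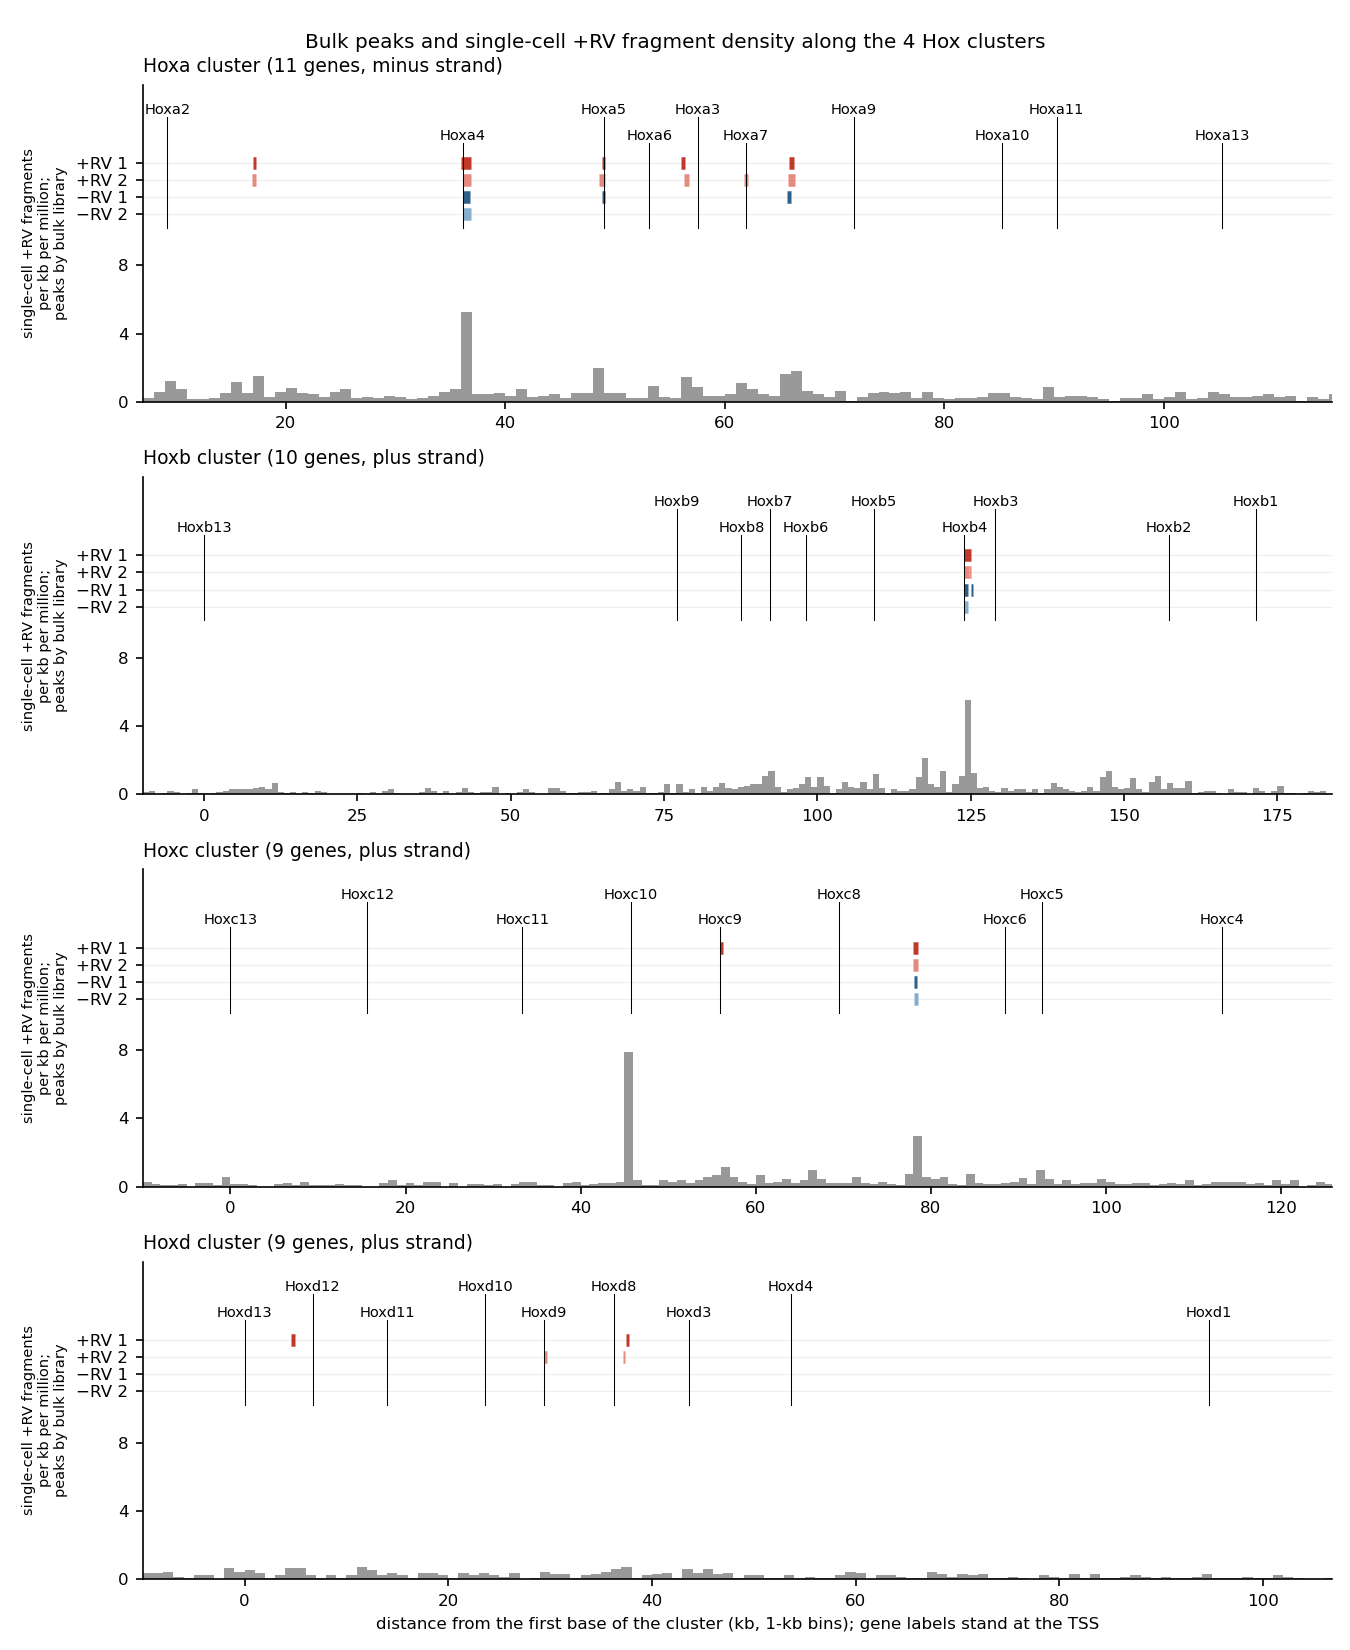
Peaks of the 4 bulk libraries (coloured bars, +RV above −RV) and single-cell +RV fragments (grey bars, CPM per kb in 1-kb bins, where CPM is fragments per 1000000 nuclear fragments) along each Hox cluster, against distance from its first base in kb, with 2 of the 15 peak regions and part of the Hoxa cluster not drawn. Peaks stand at Hoxa4, Hoxb4 and between Hoxc8 and Hoxc6 in all 4 libraries, the Hoxd cluster has none in −RV, and the tall grey bar at Hoxc10 has no bulk peak.

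The number of Hox promoters with a peak was 5 and 6 in +RV libraries and 3 and 3 in −RV libraries, a difference of 2.5 (exact two-sided permutation test, p = 0.333, the smallest value that 2 libraries against 2 allow). Peaks with their summit inside the clusters numbered 12 and 13 in +RV libraries and 6 and 5 in −RV libraries, a mean of 12.5 ± 0.707 and 5.5 ± 0.707 (SD, n = 2 each; exact p = 0.333). They covered 1.32% and 1.34% of cluster bases in +RV libraries and 0.506% and 0.473% in −RV libraries (exact p = 0.333). In these 3 measures the conditions did not overlap. The whole lists held 47755 and 47864 peaks in +RV and 32288 and 32736 in −RV. The clusters held 24.4 and 26.4 peaks per Mb in +RV libraries and 12.2 and 10.2 in −RV libraries, beside 17.5 and 17.5 per Mb of the genome in +RV and 11.8 and 12 in −RV. When each list was held to its 32288 best peaks, those in the clusters numbered 9 and 6 in +RV libraries and 6 and 4 in −RV libraries, so the conditions met at 6 (exact p = 0.667). The other 2 measures stayed without overlap (exact p = 0.333 each). Promoters with a peak were then 5 and 4 in +RV and 3 and 3 in −RV. Covered bases were 1.105% and 0.779% in +RV and 0.506% and 0.414% in −RV.

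Peaks were unevenly spread over the clusters. Hoxa held 6 and 7 peaks in +RV libraries and 3 and 2 in −RV libraries. Hoxb held 2 and 3 in +RV and 2 and 2 in −RV, and Hoxc held 2 and 1 in +RV and 1 and 1 in −RV. Hoxd held 2 and 2 peaks in +RV libraries and none in either −RV library. Per Mb, Hoxa reached 57.0 and 66.5 peaks in +RV libraries, more than the genome in the same lists, while Hoxb, the longest cluster, stood at 11.5 and 17.2.

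Merging all peaks in the clusters gave 15 regions. Of these, 3 were found in all 4 libraries, 4 in 3 libraries, 2 in both +RV libraries alone, and 6 in a single +RV library. No region was found in −RV libraries alone.

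The region between Hoxc8 and Hoxc6 was the one distal site present in every list. Its fold was 6.47 and 7.08 in +RV libraries and 4.21 and 4.11 in −RV libraries, without overlap. Its summit lay 8790 bp downstream of the Hoxc8 TSS, inside the gene records of Hoxc5 and Hoxc6 and before the coding Hoxc6 TSS. No member's promoter window reached it.

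Between Hoxa7 and Hoxa9 a region had folds of 4.20 and 3.43 in +RV libraries and 3.11 in −RV replicate 1. It was 2787 bp upstream of the nearest Hoxa7 TSS used here, but touches the start of a further Hoxa7 transcript. With such transcripts included, a choice made after seeing the data, Hoxa7 too was called in both +RV libraries. The regions of both +RV libraries alone were the one between Hoxa2 and Hoxa4, with folds of 4.99 and 3.73, and one inside Hoxa3 between the Hoxa6 and Hoxa3 starts, with 3.31 and 3.19.

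In Hoxd, 4 regions were found in 1 +RV library each, with folds between 3.51 and 4.10. A pair of them lay 389 and 750 bp downstream of a Hoxd8 TSS and came from different libraries. In the strict sense of sequence between gene bodies, outside promoter windows, 2 and 1 peaks were found in +RV libraries and 0 and 1 in −RV libraries, where the conditions overlapped (exact p = 0.667). Counted between neighbouring start sites, a rule that leaves gene bodies in, these were 9 and 8 in +RV libraries and 4 and 3 in −RV libraries (exact p = 0.333).

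**Figure D2:**
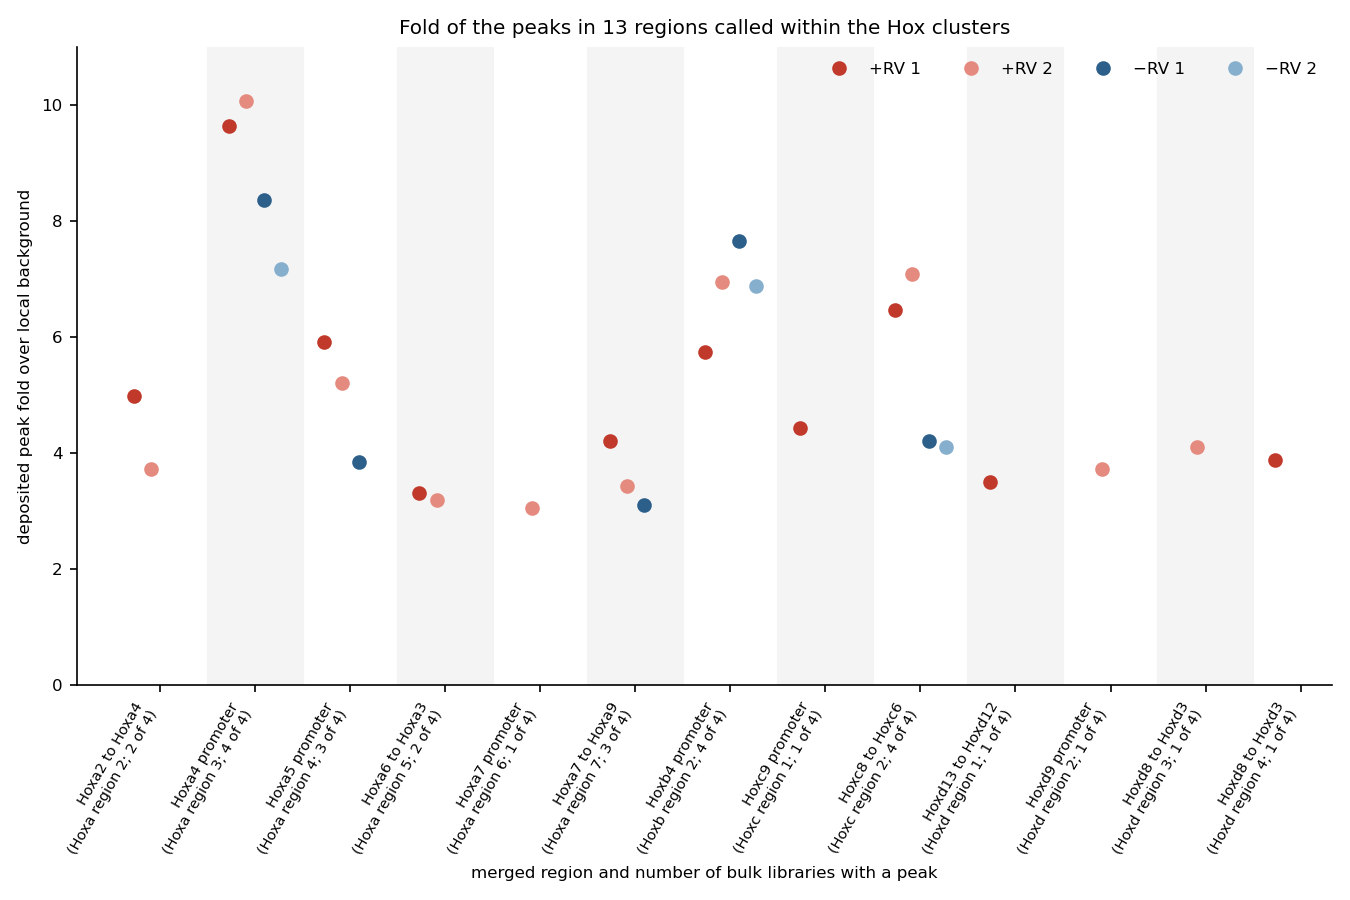
Deposited peak fold over local background (y axis) for 13 of the 15 merged regions of the Hox clusters (x axis), with 1 point per bulk library that had a peak there. The Hoxa4 promoter has the highest folds, 9.63 and 10.1 in +RV against 8.36 and 7.18 in −RV, and 6 regions rest on a single +RV library.

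CpG-rich Hox promoters mostly lacked a peak, whereas CpG-rich promoters of all genes mostly had one. Over 300 bp around the start, read from the genome for all 39 members, the median CpG count was 15 in Hox promoters and 12 in all promoters, at a median GC content of 55.3% and 55.7%. CpG-rich promoters, with at least 50% GC and an observed-to-expected CpG ratio of at least 0.6, numbered 21 of 39 Hox promoters (53.8%) and 9532 of all promoters (43.7%). Of the 21 CpG-rich Hox promoters, 3 (14.3%), among them Hoxa4 and Hoxa5, had a peak in both +RV libraries and Hoxa4 alone (1, 4.76%) in both −RV libraries. Of all CpG-rich promoters, 83.7% were called in +RV and 77.5% in −RV. No peak in any library was found for 16 of the 21 (76.2%), beside 14.2% of all CpG-rich promoters. Among the other 18 Hox promoters, Hoxb4 alone (1, 5.56%) was called in +RV and in −RV, beside 30.3% in +RV and 24.6% in −RV of all promoters that were not CpG-rich. Hoxb4 fell just short of the CpG-rich class, with a ratio of 0.593 at 58% GC, and its best summit lay outside the 300 bp. These shares are a description of 39 genes, without a test.

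**Figure D3:**
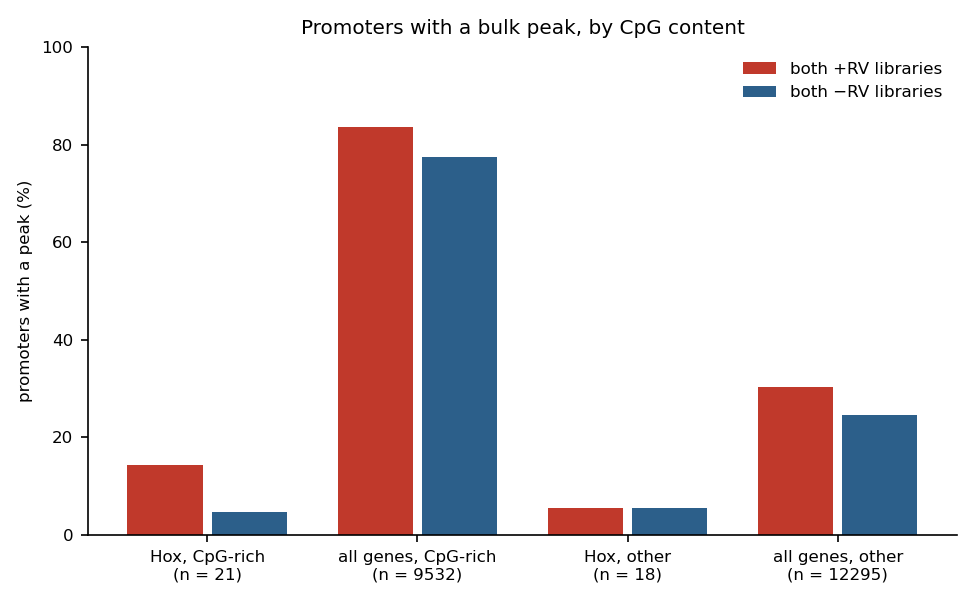
Share of promoters with a bulk peak (y axis, %) in both +RV libraries (left bars) and both −RV libraries (right bars), for CpG-rich and other promoters of the 39 Hox genes and of all protein-coding genes. CpG-rich Hox promoters reach 14.3% in +RV and 4.76% in −RV, CpG-rich promoters of all genes 83.7% and 77.5%.

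Short motifs were counted on both strands in the same 300 bp. CACGTG was found in 12 of 39 Hox promoters (30.8%), beside 7.76% of all promoters. TGATNNAT, the joint site of a Hox protein and its partner Pbx, was also found in 12 (30.8%), beside 7.09%. CCAAT was found in 26 (66.7%), beside 38.7%, and TATAAA in 7 (17.9%), beside 12.5%. In 300 bp around the summits of the 15 peak regions, CACGTG stood in 6 (40%). In the list of +RV replicate 1 it stood in 7.54% of summits. CCAAT stood in 8 regions (53.3%), beside 31.4% of the listed summits, TGATNNAT in 4 (26.7%), beside 7.03%, and TATAAA in 1 (6.67%), beside 9.55%. The 15 regions were richer in CpG, with a median count of 24 beside 5, at a median GC content of 63.7% beside 51.7%. Whether these shares would differ at equal CpG and GC content was not tested. The CTCF motif was found in none of the 39 promoters or 15 summits, beside 1.44% of promoters and 4.71% of summits. A match is a description of sequence and CACGTG itself holds a CpG.

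The single-cell sets gave a second readout of the same windows. They held 13703580 nuclear fragments from 18620 barcodes in +RV and 1592372 from 2406 barcodes in −RV, and shared 2 barcodes. Both sets are labelled as selected by unique fragments and by FRiT. The study's methods define FRiT as the share of reads from 1000 bp before to 200 bp after TSSs, the promoter window used here. Barcodes were therefore chosen partly for promoter signal. What this does to the gap between Hox and all promoters was not tested. Counts are given as CPM, the fragments per 1000000 nuclear fragments of a set, and densities as CPM per kb. A single fragment was worth 0.0730 CPM in +RV and 0.628 CPM in −RV, so −RV values of single genes are coarse. Each condition is 1 pooled set, so no test was made, and the 95% exact Poisson intervals below cover counting error only.

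Regions with a bulk peak in all 4 libraries were also dense in single-cell fragments. The Hoxa4 region held 5.51 CPM per kb (95% interval 4.30 to 6.95) in +RV and 4.0 (1.47 to 8.72) in −RV. The Hoxb4 region held 4.68 (3.79 to 5.72) in +RV and 3.36 (1.45 to 6.62) in −RV, and the region between Hoxc8 and Hoxc6 3.73 (2.55 to 5.27) in +RV and 4.01 (1.09 to 10.3) in −RV. Density in +RV was not particular to them. Among regions found in 3 libraries, the Hoxa5 region held 3.41 (2.225 to 4.99) and that between Hoxa7 and Hoxa9 3.84 (2.70 to 5.29) in +RV. In −RV each of these held 1 fragment. Outside all called regions the Hoxa cluster held 0.431 and the Hoxb cluster 0.316 in +RV, against 0.411 and 0.296 in −RV. The 2 regions of +RV bulk libraries alone held 4.07 (2.45 to 6.35) between Hoxa2 and Hoxa4 and 1.01 (0.483 to 1.85) inside Hoxa3 in +RV, from 19 and 10 fragments. In −RV they held 3.68 (0.446 to 13.3) and 2.60 (0.536 to 7.59), from 2 and 3 fragments, and the intervals of both ratios held 1. The 6 regions of a single library ranged over 0.232 to 1.80 in +RV, from 1 to 9 fragments each, and over 0 to 1.99 in −RV, from 0 or 1 fragment each.

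Over the promoter windows, Hox members were sparse. Their median density was 0.365 CPM per kb in +RV, beside 2.01 over all promoters and 0.182 over 1133 olfactory receptor genes, which are silent in spleen. In −RV the median member had 0 fragments, beside 1.57 CPM per kb over all promoters and 0.259 over olfactory receptor genes. In bulk, 5 of the 1133 olfactory receptor promoters were called in +RV and 4 in −RV. Members above the all-promoter median numbered 3 in each set, among them Hoxa4 and Hoxc10. In sum, the 31 promoters without a bulk peak other than Hoxc10 held 0.419 (0.371 to 0.471) in +RV and 0.234 (0.139 to 0.370) in −RV. Olfactory receptor promoters held 0.203 (0.198 to 0.208) in +RV and 0.255 (0.239 to 0.271) in −RV. The intervals did not overlap in +RV and did in −RV. With Hoxc10 the uncalled members held 0.572 in +RV and 0.482 in −RV, and all promoters without a peak 0.853 in +RV and 0.797 in −RV. The medians ran the other way in +RV, with 0.323 over the uncalled members (0.304 without Hoxc10) and 0.243 over all promoters without a peak, and were 0 in −RV for both. Hoxc10 was left out after its values were seen.

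Hoxa4 had 74 fragments (5.40 CPM, 4.24 to 6.78) in +RV and 6 (3.77 CPM, 1.38 to 8.20) in −RV. Hoxb4 had 25 fragments (1.82 CPM) in +RV and 3 (1.88 CPM) in −RV, and Hoxb7, which had no bulk peak, 24 (1.75 CPM) in +RV and 3 in −RV. Hoxb6 also had 24 fragments in +RV, but over a window of 2400 bp, and 1 in −RV.

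Hoxa5 had 23 fragments (1.68 CPM) in +RV and 2 in −RV, and Hoxa7 23 in +RV and 3 in −RV over a longer window. Hoxc9, with its single bulk peak, had 11 fragments in +RV and 0 in −RV, and Hoxd9 4 in +RV and 1 in −RV. In Hoxc the leading member after Hoxc10 was Hoxc5, with 14 fragments (1.02 CPM) in +RV and 2 in −RV. In Hoxd the leading members were Hoxd3, with 18 in +RV over 3600 bp and 1 in −RV, and Hoxd8, with 13 in +RV and 1 in −RV.

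At the low end, Hoxc12 had 0 fragments in both sets. A count of 0 allows up to 3 fragments, a one-sided limit of 0.219 CPM in +RV and 1.88 CPM in −RV, while the two-sided Poisson interval drawn for such genes ends at 0.269 CPM in +RV and 2.32 CPM in −RV. Hoxb13, which lies apart from the other Hoxb genes, had 1 fragment in +RV and 0 in −RV. Hoxa11 was lowest in its cluster, with 4 fragments in +RV and 0 in −RV, and in Hoxd the genes Hoxd1, Hoxd9, Hoxd11 and Hoxd12 shared the lowest count of 4 in +RV. In all, 21 members had 0 fragments in −RV, and 1 had 0 in +RV.

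**Figure D4:**
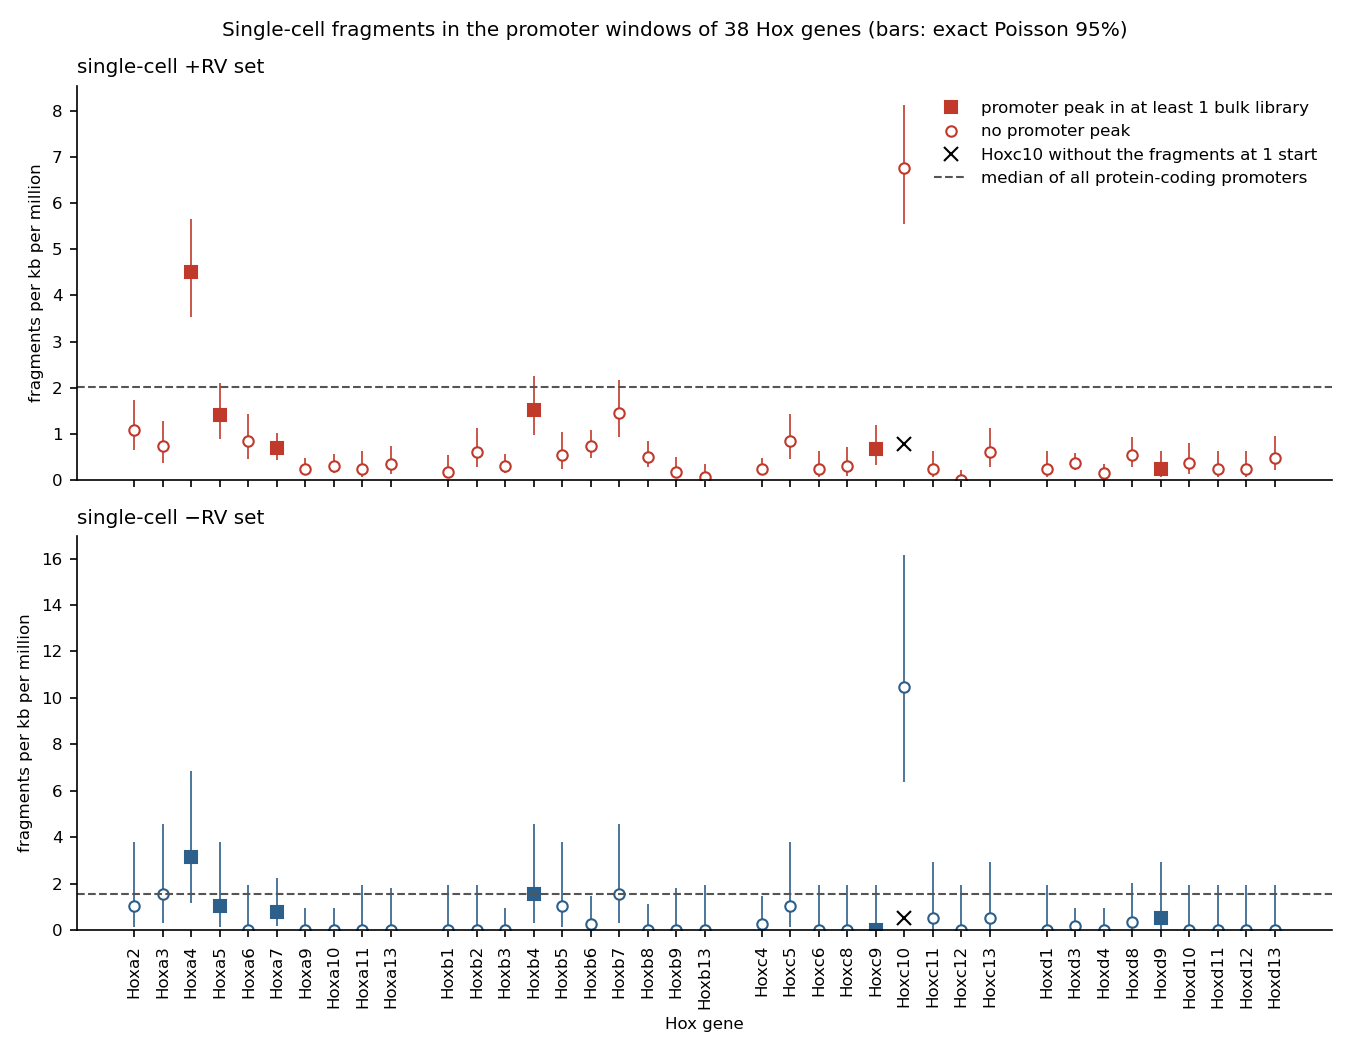
Single-cell fragment density in CPM per kb (y axis) in the promoter windows of 38 of the 39 Hox genes in the +RV set (top) and the −RV set (bottom, with its own scale), with exact Poisson 95% intervals as bars. Filled squares mark promoters with a bulk peak and the dashed line the median of all promoters, 2.01 in +RV and 1.57 in −RV; the crosses show Hoxc10 without its fragments at 1 start.

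By paralog number, the median promoter density in +RV was 0.486 for numbers 1 to 4 (range 0.152 to 4.50), 0.684 for 5 to 8 (0.243 to 1.46) and 0.244 for 9 to 13 (0 to 6.75). The highest value of the last group was Hoxc10. In −RV the medians were 0.218, 0.361 and 0.

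Hoxc10 stood apart from every other member. It had the most fragments of all 39, 111 (8.10 CPM, 6.66 to 9.76) in +RV and 20 (12.6 CPM, 7.67 to 19.4) in −RV, without a peak in any bulk library. Of these, 98 in +RV and 19 in −RV began within 1 bp of the same base, 41 bp upstream of the Hoxc10 TSS (chromosome 15, position 102966755), in 92 barcodes in +RV and 17 in −RV. They were short, at a median of 47 bp in the +RV set and 33 bp in the −RV set, and they ended at 33 different bases in +RV and 14 in −RV. Among promoters with at least 20 fragments, a median of 3.53% of fragments shared the commonest start in +RV (12767 promoters) and 6.90% in −RV (4038 promoters), against 88.3% at Hoxc10 in +RV and 95% in −RV. In +RV, 2 other promoters reached the share of Hoxc10, and 14 promoters exceeded 50%. In the 7 other Hox promoters with at least 20 fragments the share was 4% to 8.33%. In these shares the start was the fragment end at the lower coordinate, which at minus-strand genes such as Hoxa4 is the downstream end. Fragments sharing their other end were not counted. Without that start, Hoxc10 kept 13 fragments in +RV and 1 in −RV. Its density was then 0.791 CPM per kb in +RV, between Hoxc9 with 0.669 and Hoxc5 with 0.851. The source of the shared start was not tested.

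**Figure D5:**
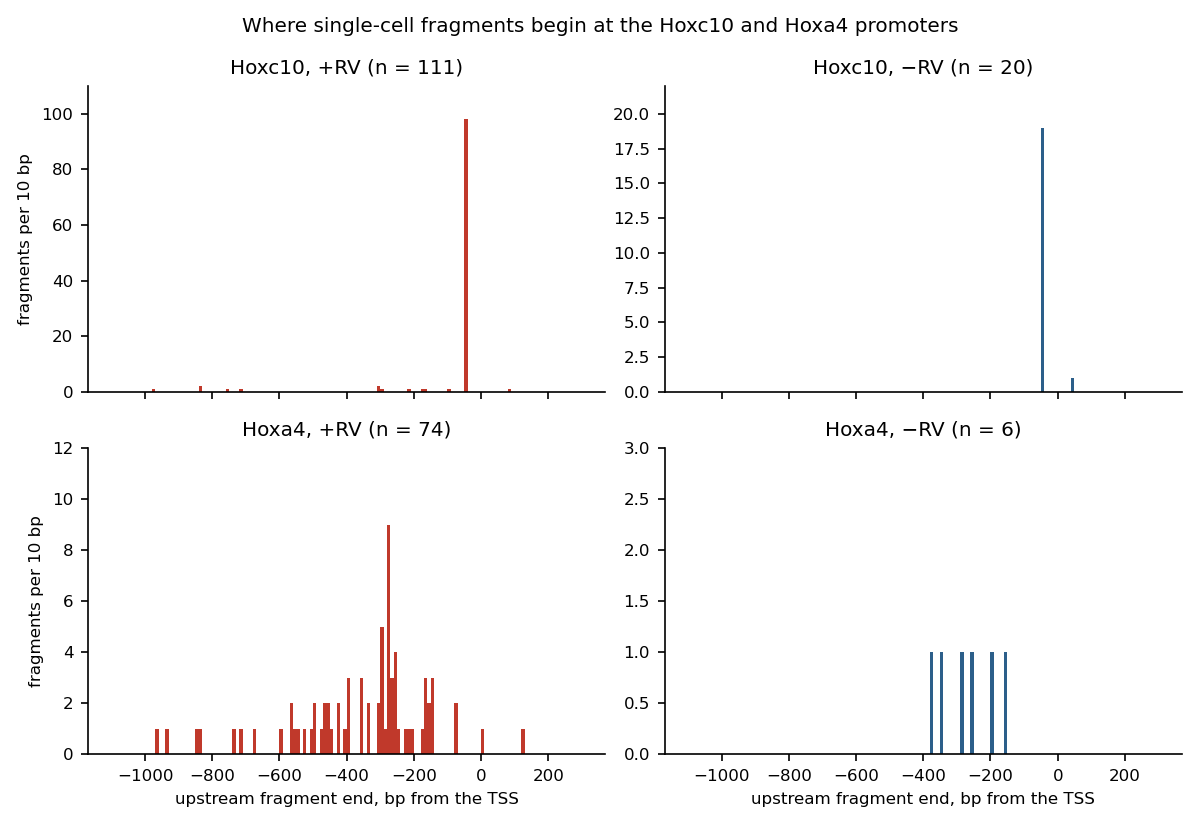
Number of single-cell fragments per 10 bp (y axis) by the distance of their upstream end from the TSS in bp (x axis) at Hoxc10 (top) and Hoxa4 (bottom), in +RV (left) and −RV (right), each with its own scale. At Hoxc10, 98 of 111 fragments in +RV and 19 of 20 in −RV begin at 1 place, while those of Hoxa4 are spread upstream of the TSS.

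Between conditions, the 39 promoters together held 586 fragments in +RV and 63 in −RV, and the ratio of their CPM was 1.08 (0.833 to 1.43), beside 1.13 (1.13 to 1.14) over all promoters. Without Hoxc10 the ratio was 1.28 (0.938 to 1.80). Over the uncalled members it was 1.19 (0.849 to 1.70), beside 1.07 (1.055 to 1.087) over all promoters without a peak. Leaving out Hoxc10, a choice made after its values were seen, gave 1.79 (1.11 to 3.06) over the 31 other uncalled members. That ratio rested on 277 fragments in +RV and 18 in −RV. Its interval left out 1 but covers counting error only, with 1 pooled set per condition. For single genes, 21 members had at least 10 fragments over both sets and 18 fell below. Of the 21, Hoxa6 and Hoxb8 were at least 2 times higher in +RV with a pseudocount of 1 CPM, beside 5.66% of the 15180 promoters that met the same minimum, and none was at least 2 times lower, beside 0.810%. Each of the pair had 14 fragments in +RV (1.02 CPM) and 0 in −RV, where 0 allows up to 1.88 CPM by the limit of 3 fragments, so no fold can be given, and the count moved between 0 and 6 members with the pseudocount.

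Across whole clusters, Hoxa was densest and Hoxd sparsest in both sets. The Hoxa span held 0.554 CPM per kb (0.517 to 0.594) in +RV and 0.525 (0.421 to 0.647) in −RV, above the genome mean of 0.367. Its flanks of 50 kb on each side held 0.212 in +RV and 0.188 in −RV. The Hoxb span held 0.360 (0.337 to 0.385) in +RV and 0.329 (0.265 to 0.403) in −RV. The Hoxc span held 0.341 in +RV and 0.385 in −RV, and without the shared Hoxc10 start 0.279 (0.254 to 0.307) in +RV and 0.282 (0.211 to 0.370) in −RV. The Hoxd span was lowest, with 0.232 (0.207 to 0.259) in +RV and 0.182 (0.121 to 0.262) in −RV, yet above its flanks of 0.155 (0.135 to 0.177) in +RV, where the −RV flanks held 0.182. For each of the 4 spans the interval of the ratio between conditions held 1.

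Within the clusters, Hoxa promoter windows held 1.03 CPM per kb in +RV and 1.03 in −RV, its gene bodies 0.487 in +RV and 0.483 in −RV, and the sequence between genes 0.411 in +RV and 0.262 in −RV. Hoxb had the same order in +RV, with 0.623 at promoters, 0.481 in gene bodies and 0.262 between genes, where its 105045 bp between genes make up 60.4% of the span. In −RV the Hoxb values were 0.396, 0.425 and 0.269, so promoters were not the highest class. Hoxc without the shared Hoxc10 start held 0.405 at promoters in +RV and 0.342 in −RV, 0.320 in gene bodies in +RV and 0.304 in −RV, and 0.135 between genes in +RV and 0.207 in −RV. In Hoxd the 3 classes lay closer together, at 0.314, 0.220 and 0.216 in +RV and 0.135, 0.189 and 0.190 in −RV, where promoters were lowest on 3 fragments.

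Fragments over 150 bp are longer than the DNA of 1 nucleosome. At the 39 Hox promoters they made up 21.0% (17.8 to 24.5, exact binomial) of +RV and 3.17% (0.387 to 11) of −RV fragments. Over all promoters they made up 28.5% in +RV and 4.30% in −RV. Without Hoxc10, left out after its values were seen, the shares at the 38 other Hox promoters were 25.3% (21.4 to 29.4) in +RV and 4.65% (0.568 to 15.8) in −RV.

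The genes that work with Hox proteins mostly had promoter peaks. All 9 cofactors of the Pbx, Meis and Pknox families, homeodomain partners that bind DNA with Hox proteins, were called in +RV and 8 of 9 in −RV, beside 53.6% and 47.7% of all genes. In sum their promoters held 5.89 CPM per kb (5.59 to 6.19) in +RV and 5.26 (4.47 to 6.16) in −RV. The same sum over all promoters was 4.22 in +RV and 3.72 in −RV. Of 22 regulators of Hox genes, 17 were called in +RV and the same number in −RV, among them Kmt2a, which keeps Hox genes active, and Ezh2, Eed and Suz12 of the Polycomb repressive complex. The 5 without any peak were Pcgf2, Kdm6b and the caudal genes Cdx1, Cdx2 and Cdx4, which switch on Hox genes in the embryo. Of 14 listed genes next to the clusters 13 were measured. Of these, 8 were called in +RV and 7 in −RV, beside 53.6% and 47.7% of all genes. Evx1 and Evx2, homeobox genes beside Hoxa13 and Hoxd13, had no peak, while Skap2 near the Hoxa cluster was called in both +RV libraries.

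The 6 microRNA genes of the clusters, of the miR-10, miR-196 and miR-615 families, had no peak in a window of the same size at their hairpin in any library. They held 1 to 12 fragments in +RV, the most at Mir196b, and 0 in −RV.

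Marker lists for cell types of the spleen were measured the same way. B cell markers were called for 6 of 6 genes in +RV and 5 in −RV, and T cell markers for 5 of 6 in each condition. Of 6 stem and progenitor markers 4 were called in +RV and 2 in −RV, of 5 endothelial markers 4 and 1, of 6 stromal markers 1 and 0, of 6 erythroid markers 5 and 2, and of 6 macrophage markers 4 and 3. Over all genes 53.6% were called in +RV and 47.7% in −RV, and no test was made of these short lists. Cd34, Cdh5, Col1a1, Col3a1, Gata1 and Csf1r had no peak in any library. In single cells the summed density of the stem and progenitor markers was 1.34 (1.18 to 1.52) in +RV and 1.22 (0.803 to 1.77) in −RV, of the stromal markers 1.26 (1.07 to 1.46) in +RV and 0.763 (0.394 to 1.33) in −RV, and no marker list held a gene at 0 in +RV. Pancreatic acinar markers, which have no place in spleen, were called in neither condition but held 2.49 (2.22 to 2.78) in +RV and 4.47 (3.45 to 5.71) in −RV. The summed density of all promoters was 4.22 in +RV and 3.72 in −RV. The part of these cells in the Hox results was not tested.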

How the data were processed

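Bulk ATAC-seq (2 libraries per condition) and single-cell ATAC-seq (1 pooled fragment set per condition) were analysed on mm10. The authors deposited, per bulk library, peaks with a score, a fold ratio and −log10 p and q values, and for single cells the fragments with their barcode. These deposited scores, folds and −log10 values describe peaks within 1 list; read depth behind the lists is unknown. The study's methods name MACS2, and tools listed by the submitters without roles are SEACR 1.3, Picard 1.119, SAMtools 1.15 and Bowtie2 2.4 (processing notes).

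Results of 1 member and 1 peak sequence are not reported here. The members and lists were chosen with earlier results of these data known. Described in full were members with a promoter peak, and the 2 highest and the lowest of each cluster by +RV CPM. TSSs came from basic protein-coding transcripts of GENCODE vM21 (41433 windows). A peak touched a window by 1 bp, and a promoter was called with a peak in both libraries. Fragments were counted by midpoint, as CPM of nuclear fragments. Library values were compared by exact permutation, gene classes described without a test. Functions were tested on simulated data. Python 3.11.15, pandas 2.3.3 and SciPy 1.17.1 were used. Genome sequence was GRCm38.p6.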

Additional observations from a re-analysis of the deposited data

How the results depend on the processing

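Of 92 values recomputed under alternatives, 79 were counted as the same and 13 as moved, by limits set for each kind of value. For differences between bulk libraries, the same meant only the same sign. Part of the 79 was fixed in advance. The replicate block cannot change a difference, and leaving out a library of 1 condition cannot change the calls of the other. The tally is therefore no measure of robustness. A reversal could be recorded for the differences between bulk libraries alone, and none of these reversed. The CPM ratio of the Hox promoters went from 1.08 to 0.981 (0.730 to 1.34) with a window of 500 bp up to 100 bp down, where the interval held 1. With equal numbers of peaks per list, the difference was 1.5 in promoters with a peak, 2.5 in peaks inside the clusters and in covered bases 0.482 percentage points, and peaks between start sites instead of gene bodies differed by 5. The −RV promoter calls moved to 1 when the summit had to lie in the window, which drops Hoxb4, whose summit lies downstream, and leaves 3 in +RV. The number of members at least 2 times higher in +RV single-cell CPM was 1 with barcodes of at least 1000 fragments, 0 with fragments of at most 100 bp, with fragment ends, with a pseudocount of 2 CPM, with a minimum of 20 fragments or with a window of 500 bp up to 100 bp down, and 6 with a pseudocount of 0.5 CPM. The share of long fragments at Hox promoters was 36.2% over 100 bp and 12.1% over 200 bp in +RV, and 0% over 200 bp in −RV. Of settings chosen after seeing the data, counting each start position once gave 25.4% and leaving out Hoxc10 gave 25.3% in +RV. The cause of these shifts was not tested beyond what each setting changes by construction.

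Leaving out each library in turn, the difference in promoters with a peak ranged over 2 to 3, in peaks over 6.5 to 7.5, in covered bases over 0.819 to 0.851 percentage points and in peaks between genes over 0.5 to 1.5. Promoters called ranged over 4 to 6 in +RV, with 6 without +RV replicate 1, and over 2 to 3 in −RV, with 3 without either −RV library. With the replicate block, differences stayed at 2.5 promoters, 7 peaks, 0.835 percentage points and 1 peak between genes, with exact p = 0.5, 0.5, 0.5 and 1; nothing but the number ties same-numbered libraries to each other. Depth limits −RV single-cell values, where 1 fragment is 0.628 CPM.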
